A study of Mus musculus with 3 samples.

Results

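Levels of 9 genes used as markers of the primed epiblast were read in RNA-seq of E14 mouse ESCs. The genes are the transcription factors *Otx2*, *Foxd3*, *Pou3f1*, *Sox11*, *Zic2*, *Zic5* and *Grhl2* and the FGF ligands *Fgf5* and *Fgf15*. They were chosen by name, with earlier results of these data known, and all 9 were found among the 23953 genes of the deposited tables. Each of 3 conditions has 1 library. The WT library is labelled only WT. Tam holds cells with loxP sites around the *Oct4* distal enhancer (DE) on both alleles, given 4-OH tamoxifen for 48 h so that CreERT2 deletes the DE. DoxTam holds the same kind of cells given tamoxifen together with doxycycline, which induces a transgenic mouse *Oct4*. GEO's labels list both inducible constructs for all 3 libraries, and the sources used here do not say whether WT was the parental E14 line. The floxed cells were expanded as clones, and all cells were grown in serum with LIF. With 1 library per condition no difference between conditions has a replicate check, so no SD or p-value is given.

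In the mouse embryo, pluripotent epiblast cells move from a naive state, which LIF helps to hold in cultured ESCs, through a formative state to a primed state that precedes gastrulation. FGF signaling through ERK drives this transition. OTX2 and POU3F1 act with OCT4 at newly active enhancers, GRHL2 takes over a set of epithelial enhancers, and *Fgf5* is the classical marker of the epiblast after implantation, which naive ESCs hardly express.

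The primed epiblast markers stayed at low to moderate levels in every library, and on the log2(FPKM + 1) scale none was higher or lower by 1.5-fold between any pair of libraries. Over all genes at 1 FPKM or more in either library of a pair, only 2.09% to 6.98% passed 1.5-fold in a given direction. With so few members, the absence of calls therefore does not set them apart from other genes, and this scale understates changes at low levels. *Foxd3*, a forkhead factor of ESCs and epiblast and later of the neural crest, had the highest level, between 23.1 and 25.6 FPKM. *Fgf5* had the lowest, between 0 and 0.275 FPKM. The member with the widest range on the log2(FPKM + 1) scale was *Pou3f1*, at 1.20 FPKM in WT, 0.647 FPKM in Tam and 0.558 FPKM in DoxTam. FPKM counts the fragments of a gene per kilobase of its transcript, scaled by the fragments of the whole library, so levels can be compared between genes.

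The promoters of the highest and the lowest member are shown to set their base composition beside these levels. The windows run from 250 bases before to 50 bases after the transcription start (RefSeq, GRCm38.p6), 5′ to 3′ on the gene's strand, with each CG dinucleotide in capitals. The window of *Foxd3* lies at chr4:99656049-99656348 on the plus strand and that of *Fgf5* at chr5:98253934-98254233 on the plus strand.
*Foxd3*: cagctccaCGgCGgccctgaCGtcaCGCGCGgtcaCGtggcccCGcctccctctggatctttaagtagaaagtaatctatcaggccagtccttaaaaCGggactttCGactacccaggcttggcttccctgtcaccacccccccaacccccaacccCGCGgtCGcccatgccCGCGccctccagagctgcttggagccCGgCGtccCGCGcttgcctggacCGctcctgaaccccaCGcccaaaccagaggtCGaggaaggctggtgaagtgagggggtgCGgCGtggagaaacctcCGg
*Fgf5*: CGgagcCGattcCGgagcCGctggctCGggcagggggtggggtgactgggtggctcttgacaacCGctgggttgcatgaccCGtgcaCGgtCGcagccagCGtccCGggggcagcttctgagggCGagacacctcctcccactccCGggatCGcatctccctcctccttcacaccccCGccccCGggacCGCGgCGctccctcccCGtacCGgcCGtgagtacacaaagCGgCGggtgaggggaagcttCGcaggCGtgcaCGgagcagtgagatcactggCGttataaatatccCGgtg
The *Foxd3* window held 25 CG dinucleotides and the *Fgf5* window held 29, against a median of 7 over 32851 promoters of the same length. Both windows were thus rich in CG, at opposite ends of the members' range of levels. The table of promoters held 8 windows for 5 members, namely *Foxd3*, *Fgf5*, *Sox11*, *Zic5* and *Otx2*, and the median over these windows was 15.5 CG dinucleotides. The windows of *Sox11* and *Zic5* had 21 and 15 of them, and the 4 windows of *Otx2* had between 6 and 16. The octamer ATGCAAAT, the consensus letters of POU factors, was searched on both strands and matched 0 of the 8 windows, against 1.74% of all promoters. For 8 windows this share amounts to less than 1 match, so the 0 does not set the members apart. TATAAA matched 25% of the 8 windows (the *Fgf5* window and 1 of *Otx2*), against 13.6% of all promoters. CCAAT matched 25% of the 8 windows, against 37.4% of all promoters. Of the 8 windows 4 belong to *Otx2*, and some of these overlap, so the shares are not over independent genes.

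The study designed qPCR primers for *Fgf5* and *Otx2*, and they are shown because they mark the exons that each assay reads. The paper measured both genes, as ectoderm markers, in ESCs with *Llgl2* or *Grb7* knocked down, where it reports differentiation genes as raised. Those are not the cells of the libraries read here. Exons are counted 5′ to 3′ in the gene's transcript, and positions are in mm9.
*Fgf5* forward: catcggtttccatctgcagatc
*Fgf5* reverse: ctcctcgtattcctacaatccc
*Otx2* forward: ggaagtgagttcagagagtgg
*Otx2* reverse: tccagatagacactggagcac
The *Fgf5* forward primer matched exon 1 at chr5:98683712-98683733 and the reverse primer exon 2 at chr5:98690991-98691012, with 119 bases of transcript from end to end. Both *Otx2* primers matched exon 5, the last exon, at chr14:49278874-49278894 (forward) and chr14:49278794-49278814 (reverse), with 101 bases from end to end. The *Fgf5* pair thus spans an intron and the *Otx2* pair does not.

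The labels were first checked on *Pou5f1*, which encodes OCT4. It stood at 664 FPKM in WT, 529 FPKM in Tam and 458 FPKM in DoxTam, so the library labelled as having transgenic *Oct4* held the lowest value. Its log2 fold in Tam was -0.33, inside 1.5-fold, although the DE drives *Oct4* in naive cells. The paper reports by qPCR that *Oct4* was nearly lost in cells of this kind with tamoxifen alone and came back with doxycycline. In these libraries the fall in Tam had the direction of its label but was far smaller, and the DoxTam value goes against its label. All folds below are those of the libraries labelled Tam and DoxTam. Depth, read from the steps between low FPKM values, was approximately 14.0 M fragments in WT, 7.17 M in Tam and 8.26 M in DoxTam. Genes listed at 0 numbered 5333 in WT, 3667 in Tam and 6634 in DoxTam. Tam had the fewest genes at 0 although it was the shallowest library, so low values above 0 were more widespread in Tam than in the other libraries. Core pluripotency genes were abundant in every library, as in pluripotent cells, with 10 of 10 genes between 62.0 and 664 FPKM in WT, between 46.4 and 529 FPKM in Tam and between 61.4 and 600 FPKM in DoxTam. In bulk RNA, fewer cells that express a gene and less RNA per cell cannot be told apart.

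Of the 9 members, 7 were at 1 FPKM or more in WT, 6 in Tam and 6 in DoxTam. The median level of the members was 2.11 FPKM in WT, 2.01 FPKM in Tam and 2.37 FPKM in DoxTam, beside 1.06, 1.18 and 0.974 FPKM over all genes. Their summed level was 45.2 FPKM in WT, 41.9 FPKM in Tam and 43.5 FPKM in DoxTam, of which *Foxd3* alone gave 25.6, 23.7 and 23.1 FPKM. Only *Foxd3* and *Otx2* were above 5 FPKM in any library. In WT, 86.9% of genes lay below *Foxd3* and 69.2% below *Otx2*, while the other members lay closer to the middle of all genes or, for *Fgf5*, above 30.9% of them.

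**Figure D1:**
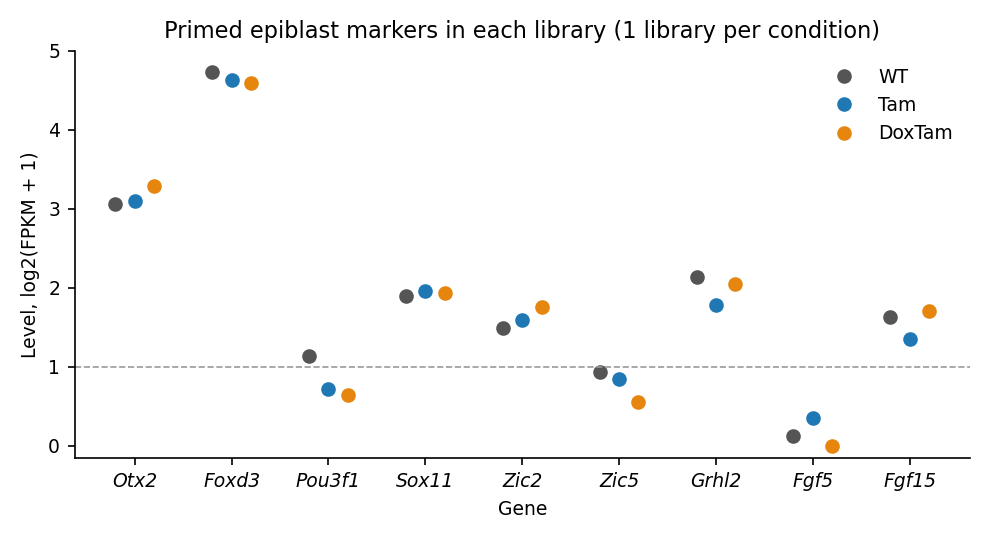
Level of each primed epiblast marker (x axis) as log2(FPKM + 1) (y axis) in WT (grey), Tam (blue) and DoxTam (orange), with 1 point per library and a dashed line at 1 FPKM. The 3 points of a gene lie close together against the distance between *Foxd3*, at 23.1 to 25.6 FPKM, and *Fgf5*, at 0 to 0.275 FPKM.

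The order of levels in WT was *Foxd3*, *Otx2*, *Grhl2*, *Sox11*, *Fgf15*, *Zic2*, *Pou3f1*, *Zic5* and *Fgf5*. Neighbours in this order were set against counting error, taken from the approximate number of fragments of each gene, which covers counting error only. Differences above 1.96 counting standard errors (SE) separated *Foxd3* from *Otx2*, *Otx2* from *Grhl2*, *Grhl2* from *Sox11*, *Zic2* from *Pou3f1* and *Zic5* from *Fgf5*. The steps from *Sox11* to *Fgf15*, from *Fgf15* to *Zic2* and from *Pou3f1* to *Zic5* did not exceed it. In DoxTam the order was the same except that *Zic2* stood above *Fgf15*, and only the steps from *Foxd3* to *Otx2*, from *Otx2* to *Grhl2* and from *Fgf15* to *Pou3f1* exceeded counting error, with the step from *Zic5* to *Fgf5* not computed because *Fgf5* was at 0. In Tam, *Sox11* stood above *Grhl2*, *Zic2* above *Fgf15* and *Zic5* above *Pou3f1*, and only the steps from *Foxd3* to *Otx2* and from *Otx2* to *Sox11* exceeded counting error. The top of the order, *Foxd3* and then *Otx2*, was thus shared by the 3 libraries, and *Fgf5* was last in each.

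By its label, Tam against WT sets cells with a deleted DE beside wild-type cells. Folds are log2 of (FPKM + 1) over (FPKM + 1), which understates changes of weakly expressed genes. To be measured, a gene had to be at 1 FPKM or more in either library of the pair, and it was called higher or lower at 1.5-fold (0.585 on the log2 scale). Of all measured genes, 6.98% were higher and 3.59% lower in Tam. Among the 7 members measured, 0 were higher and 0 lower, and their folds lay between -0.41 and 0.10, with a median of -0.11 beside 0.021 over all measured genes. Between DoxTam and WT, 4.12% of measured genes were higher and 5.78% lower. Again 0 of 7 measured members were higher and 0 lower, with folds from -0.49 to 0.26 and a median of 0.035 beside -0.0028 over all measured genes. WT is the same library in both comparisons, so their folds are not independent. *Zic5* and *Fgf5* were below 1 FPKM in all libraries and were not measured. For 7 genes, these background shares amount to less than 1 gene called.

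**Figure D2:**
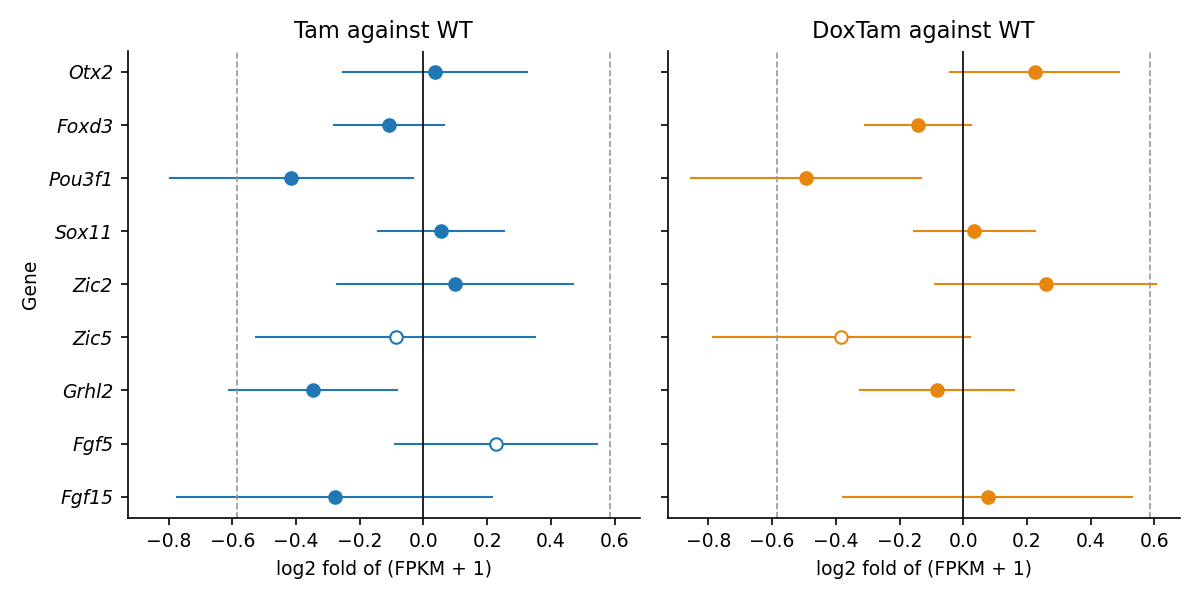
Log2 fold of (FPKM + 1) against WT (x axis) of each primed epiblast marker (y axis) in Tam (left, blue) and DoxTam (right, orange). Lines span 1.96 counting SE on either side, open circles mark genes below 1 FPKM in both libraries, dashed lines mark 1.5-fold, and *Fgf5* has no point in DoxTam because it was at or under 3 fragments in both libraries; all points lie inside the dashed lines, with *Pou3f1* farthest to the left at -0.41 and -0.49.

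*Otx2* lies at chr14:49277352-49287319 (mm9, minus strand, 5 exons) and encodes a paired-type homeodomain factor of the epiblast and forebrain. It stood at 7.35 FPKM in WT, 7.56 FPKM in Tam and 8.75 FPKM in DoxTam, from approximately 216, 115 and 154 fragments. DoxTam was the highest library. The log2 fold against WT was 0.04 ± 0.15 (counting SE) in Tam and 0.22 ± 0.14 in DoxTam, so both lay within counting error, and the sign in Tam turned with rescaling to a total without small RNA genes and with removal of the GC trend.

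*Foxd3* (chr4:99322990-99325362, plus strand) is a gene of a single exon. The level was 25.6 FPKM in WT, 23.7 FPKM in Tam and 23.1 FPKM in DoxTam, from approximately 768, 367 and 415 fragments, the best counted of the 9 genes. WT was the highest library by a small margin. The log2 folds were -0.11 ± 0.088 in Tam and -0.14 ± 0.084 in DoxTam, within 1.96 counting SE, and both were above 0 once libraries were rescaled to one total or the GC trend was removed. Both stayed below 0 when small RNA genes were left out of the total (-0.16 and -0.15) and after centring on the median fold (-0.13 and -0.14). A microRNA gene model, BX005053.1, overlaps its exon on the same strand, so part of the count could belong to it.

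*Pou3f1* (chr4:124334889-124337899, plus strand) encodes OCT6, a POU factor of the formative epiblast and of neural and glial progenitors. Its 1.20 FPKM in WT, 0.647 FPKM in Tam and 0.558 FPKM in DoxTam came from approximately 46.5, 13.0 and 13.0 fragments. WT was the only library above 1 FPKM, and Tam and DoxTam were close to each other. The gene was thus measured only through WT, so before removal of the GC trend it could be called lower but not higher. The FPKM ratio to WT was 0.541 in Tam and 0.467 in DoxTam, and the log2 folds of (FPKM + 1) were -0.41 ± 0.19 and -0.49 ± 0.18. Both exceeded 1.96 counting SE and missed 1.5-fold. With a pseudocount of 0.1 FPKM in place of 1 FPKM the folds were -0.79 and -0.98, which passes 1.5-fold in both libraries. After removal of the GC trend, at a pseudocount of 1 FPKM, they were -0.17 and -0.11. Among the measured members, only *Pou3f1* thus changed its place past or short of 1.5-fold when the pseudocount alone was changed. The GC content of its exons, 61.5%, is above that of 97.6% of genes expressed in WT.

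*Sox11* (chr12:28019133-28027583, minus strand, a single exon) encodes a SoxC factor of neural and mesenchymal progenitors. It was at 2.74 FPKM in WT, 2.88 FPKM in Tam and 2.83 FPKM in DoxTam, from approximately 315, 170 and 193 fragments. This was the narrowest spread of any measured member. The log2 folds were 0.06 ± 0.10 and 0.04 ± 0.097, and both turned slightly negative after removal of the GC trend.

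*Zic2* and *Zic5* encode zinc finger factors and stand head to head on chromosome 14, *Zic5* at chr14:122858382-122864880 on the minus strand and *Zic2* at chr14:122874606-122879550 on the plus strand, with 9725 bp between their starts. *Zic2*, a factor bound at enhancers in ESCs and epiblast, was at 1.81 FPKM in WT, 2.01 FPKM in Tam and 2.37 FPKM in DoxTam (approximately 69.5, 39.8 and 54.2 fragments). *Zic5* was at 0.917 FPKM in WT, 0.804 FPKM in Tam and 0.471 FPKM in DoxTam (approximately 27.6, 12.5 and 8.50 fragments). The neighbours thus ran in opposite order over the libraries, with DoxTam highest for *Zic2* and lowest for *Zic5*. The log2 folds of *Zic2* were 0.10 ± 0.19 in Tam and 0.26 ± 0.18 in DoxTam, and those of *Zic5* were -0.09 ± 0.22 and -0.38 ± 0.21, all within 1.96 counting SE. For *Zic5*, the FPKM ratio of DoxTam to WT was 0.513, and the gene was not measured because it stayed below 1 FPKM.

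*Grhl2* (chr15:37162791-37293323, plus strand, 16 exons) encodes a grainyhead factor of epithelial cells. It was at 3.39 FPKM in WT, 2.45 FPKM in Tam and 3.15 FPKM in DoxTam, from approximately 224, 83.3 and 123 fragments. Tam was the lowest library, and DoxTam was close to WT. The log2 fold in Tam was -0.35 ± 0.13, an FPKM ratio of 0.724, which exceeded 1.96 counting SE but not 1.5-fold, and it was -0.34 after removal of the GC trend. In DoxTam it was -0.08 ± 0.12, and 0.20 after rescaling to the same total, or -0.09 with small RNA genes left out of that total. A transcript on the opposite strand, Gm16136, overlaps *Grhl2* in an exon. The library kit keeps the strand, but the sources used here do not say whether counting used it.

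*Fgf5* (chr5:98683203-98706052, plus strand, 3 exons) encodes a secreted ligand. It was at 0.0881 FPKM in WT, 0.275 FPKM in Tam and 0 FPKM in DoxTam, from approximately 2.80, 4.52 and 0 fragments. Those values are a handful of fragments in WT and Tam, and the count of 0 in DoxTam allows a level of up to 0.158 FPKM (3 fragments). The FPKM ratio of Tam to WT was 3.12, with an exact 95% binomial interval from 0.627 to 20.8 for the rounded fragments, so no difference was detectable at this depth. The classical marker of the primed epiblast was hardly present in any of the 3 libraries.

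*Fgf15* (chr7:152082437-152086856, plus strand, 3 exons) encodes an endocrine ligand, known in the intestine for feedback on bile acid synthesis and in the embryo from the neural tube. It was at 2.11 FPKM in WT, 1.56 FPKM in Tam and 2.27 FPKM in DoxTam, from approximately 46.4, 17.9 and 30.2 fragments. Tam was again the lowest library and DoxTam was close to WT. The log2 folds were -0.28 ± 0.25 and 0.08 ± 0.23, within counting error. Gm17685, a long noncoding RNA on the opposite strand, overlaps it in an exon.

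Setting DoxTam against Tam compares the libraries that differ by doxycycline, across the 2 deposited tables. Of all measured genes, 2.09% were higher and 5.74% lower in DoxTam. Of 6 measured members, 0 were higher and 0 lower, with a median fold of 0.17 beside -0.019 over all measured genes. *Fgf15* had the highest fold, 0.36 ± 0.28, and *Grhl2* the next, 0.26 ± 0.15. *Otx2* was at 0.19 ± 0.16 and *Zic2* at 0.16 ± 0.21. *Sox11* and *Foxd3* were at -0.02 and -0.03, and both turned positive after rescaling. All 6 folds lay within 1.96 counting SE. *Pou3f1*, below 1 FPKM in both libraries, was at -0.08 ± 0.21.

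Folds of all genes ran with the GC content of their exons, and the members differ widely in it. With genes cut by GC content into 10 equal parts, the median log2 fold ran from 0.23 in the GC-poorest to -0.21 in the GC-richest part in Tam, and from 0.33 to -0.35 in DoxTam. The GC content of the members ran from 45.9% in *Otx2* to 64.2% in *Foxd3*, with a median of 50.9% beside 50.2% over genes expressed in WT. *Pou3f1* (61.5%), *Zic5* (64.1%) and *Foxd3* (64.2%) were above 97.6%, 99.4% and 99.5% of those genes, and their folds were below 0 in both libraries. *Otx2* (45.9%) and *Sox11* (46.9%) were above only 27.7% and 32.9% of genes, and their folds were above 0 in both libraries. *Zic2*, at 56.0%, lay above the trend in both. After removal of the trend, *Foxd3* stood at 0.21 in Tam and 0.31 in DoxTam, and *Zic2* at 0.20 and 0.47. *Otx2* was then at -0.06 and 0.08, *Sox11* at -0.02 and -0.06, and *Fgf15* at -0.26 and 0.12. *Grhl2*, with a GC content of 50.2% near the median, was at -0.34 and -0.06, almost where it stood before. No member passed 1.5-fold after this step, and the part of base composition in the single folds was not tested.

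**Figure D3:**
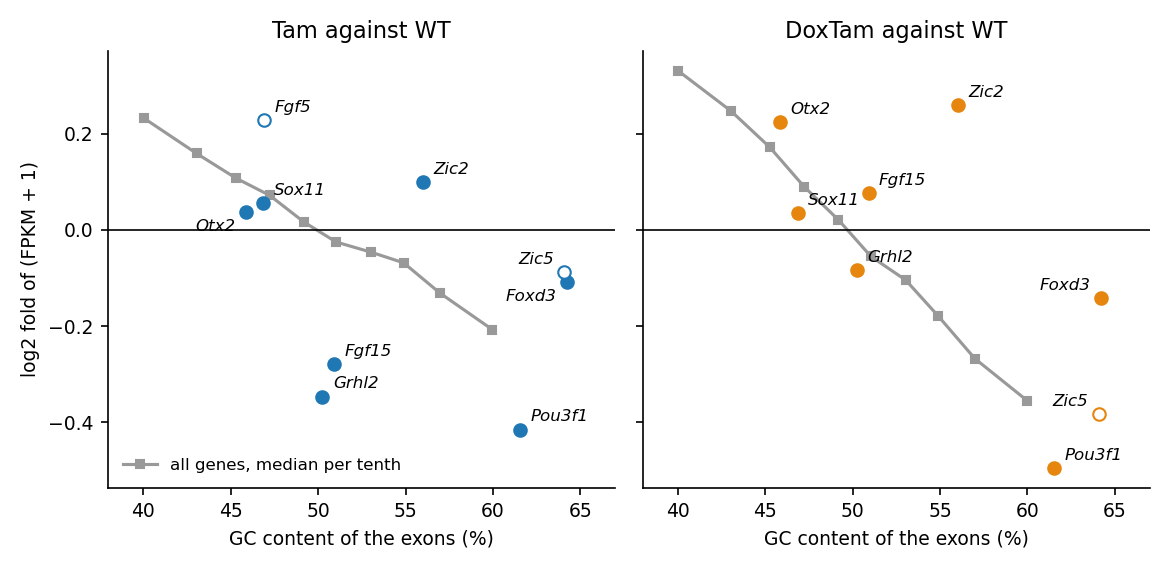
Log2 fold of (FPKM + 1) against WT (y axis) by GC content of the exons in percent (x axis) for each primed epiblast marker in Tam (left, blue) and DoxTam (right, orange), with open circles for genes below 1 FPKM in both libraries. Grey squares are medians over 10 equal parts of all measured genes, falling from 0.23 to -0.21 in Tam and from 0.33 to -0.35 in DoxTam; *Pou3f1*, *Zic5* and *Foxd3* lie at the right end below 0, and *Foxd3* lies above the trend in both panels.

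Genes with a pair of folds most like that of *Pou3f1* were sought among the 9125 genes that reached 5 FPKM in any library, by Euclidean distance of the 2 log2 folds against WT. The nearest were *Rrp36*, *Cdk5rap2*, *0610010K14Rik*, *Sipa1l3* and *Mdfi*, at distances of 0.0065 to 0.019. *Rrp36*, the nearest, was at 36.3 FPKM in WT, 27.0 FPKM in Tam and 25.6 FPKM in DoxTam, folds of -0.42 and -0.49. Its FPKM ratios to WT were 0.743 and 0.705, against 0.541 and 0.467 for *Pou3f1*, because the pseudocount of 1 FPKM shrinks folds of genes with low levels, so the likeness holds only on the log2(FPKM + 1) scale. It also rests on 3 libraries and 2 folds that share WT, so many genes lie near any such pair.

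Other genes used as markers of the formative and primed epiblast were at moderate to high levels in part. Of 19 such genes, 13 were measured in Tam against WT, where 0 were higher and 2 lower, with a median log2 fold of -0.05. *Etv4*, an ETS factor downstream of ERK, was at 50.1 FPKM in WT, 29.2 FPKM in Tam and 39.4 FPKM in DoxTam, a fold of -0.76 in Tam and -0.34 in DoxTam. *Lin28b*, an inhibitor of let-7 processing, was at 6.30 FPKM in WT, 3.74 FPKM in Tam and 8.81 FPKM in DoxTam, with folds of -0.62 and 0.43. Tam was the lowest library for both. In DoxTam, 0 of 14 measured genes were higher and 0 lower, with a median of -0.06.

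Genes of the naive state were all measured, with levels from 1.09 FPKM (*Dppa3*) to 395 FPKM in WT and a median of 76.0 FPKM, beside a median of 2.11 FPKM for the primed epiblast markers. In Tam, 2 of 18 were higher and 1 lower, with a median of 0.09. *Fbxo15* stood at 38.2 FPKM in WT and 60.9 FPKM in Tam (0.66), and *Tfcp2l1*, a naive transcription factor, at 90.7 FPKM in WT and 139 FPKM in Tam (0.61). *Gbx2*, a homeobox gene that responds to LIF, stood at 33.0 FPKM in WT and 20.6 FPKM in Tam (-0.66). With the GC trend removed, *Fbxo15* (0.54) and *Gbx2* (-0.47) were inside 1.5-fold, and *Tfcp2l1* had no GC value. In DoxTam, 0 of 18 were higher and 0 lower, with a median of -0.04. Of the 10 core pluripotency genes, 0 were higher and 1 lower in each library, with medians of -0.19 in Tam and -0.07 in DoxTam. That gene was *Utf1*, a chromatin factor of ESCs, at 181 FPKM in WT, 90.6 FPKM in Tam and 83.2 FPKM in DoxTam, folds of -0.99 and -1.11.

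Paralogs set these levels beside those of each gene's family, and 6 of 19 paralogs were measured. *Grhl3* was at 24.3 FPKM in WT, 22.5 FPKM in Tam and 22.0 FPKM in DoxTam, above *Grhl2*, and *Grhl1* was at 3.33 FPKM in WT, close to *Grhl2*. The FGF ligand of naive cells, *Fgf4*, was at 106 FPKM in WT, 90.9 FPKM in Tam and 90.4 FPKM in DoxTam. *Pou3f2*, *Pou3f3* and *Pou3f4* stayed at or below 0.308 FPKM in every library, so *Pou3f1* was the most abundant of these *Pou3f* genes. *Sox12*, a SoxC factor like *Sox11*, was the 1 paralog lower in each library, at 14.9 FPKM in WT, 9.03 FPKM in Tam and 7.60 FPKM in DoxTam (-0.67 and -0.89), and 0 were higher. After removal of the GC trend its folds were -0.48 and -0.55, inside 1.5-fold. The medians of the 6 measured paralogs were -0.17 and -0.19.

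Receptors and relay proteins of FGF signaling, 11 of 14 measured, had 0 genes higher and 0 lower in each library, with medians of -0.03 in Tam and -0.12 in DoxTam. *Fgfr1*, the main FGF receptor of the epiblast, was at 11.5 FPKM in WT, 11.9 FPKM in Tam and 8.89 FPKM in DoxTam. Reception of FGF15 needs FGFR4 with the co-receptor KLB, and *Fgfr4* was at 2.48 to 2.64 FPKM while *Klb* was at 0.0701 to 0.173 FPKM. Among 14 feedback and response genes of ERK, 2 were higher and 4 lower in Tam (median -0.25), and 2 were higher and 2 lower in DoxTam (median -0.02). *Egr1*, an immediate early gene, was at 20.9 FPKM in WT, 8.37 FPKM in Tam and 9.82 FPKM in DoxTam (-1.22 and -1.02). *Ier2*, another immediate early gene, was at 95.5 FPKM in WT, 50.8 FPKM in Tam and 47.2 FPKM in DoxTam (-0.90 and -1.0). *Etv1*, an ETS factor, was at 2.44 FPKM in WT, 4.50 FPKM in Tam and 4.16 FPKM in DoxTam (0.68 and 0.59), and with the GC trend removed it was inside 1.5-fold (0.52 and 0.33). *Fos* was higher in Tam, at 3.19 FPKM in WT, 5.30 FPKM in Tam and 2.04 FPKM in DoxTam (0.59 in Tam), and the feedback inhibitor *Spry1* was higher in DoxTam, at 6.82 FPKM in WT and 11.2 FPKM in DoxTam (0.64).

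GRHL2 activates genes of epithelial junctions, so a list of its epithelial targets was set beside the lower *Grhl2* level in Tam. In Tam, 0 of 13 measured targets were higher and 0 lower, with folds from -0.42 to 0.39 and a median of -0.16. In DoxTam, 0 of 14 were higher and 0 lower, with a median of 0.01. *Cdh1*, the gene of E-cadherin, was at 82.5 FPKM in WT, 69.1 FPKM in Tam and 67.4 FPKM in DoxTam (-0.25 and -0.29).

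**Figure D4:**
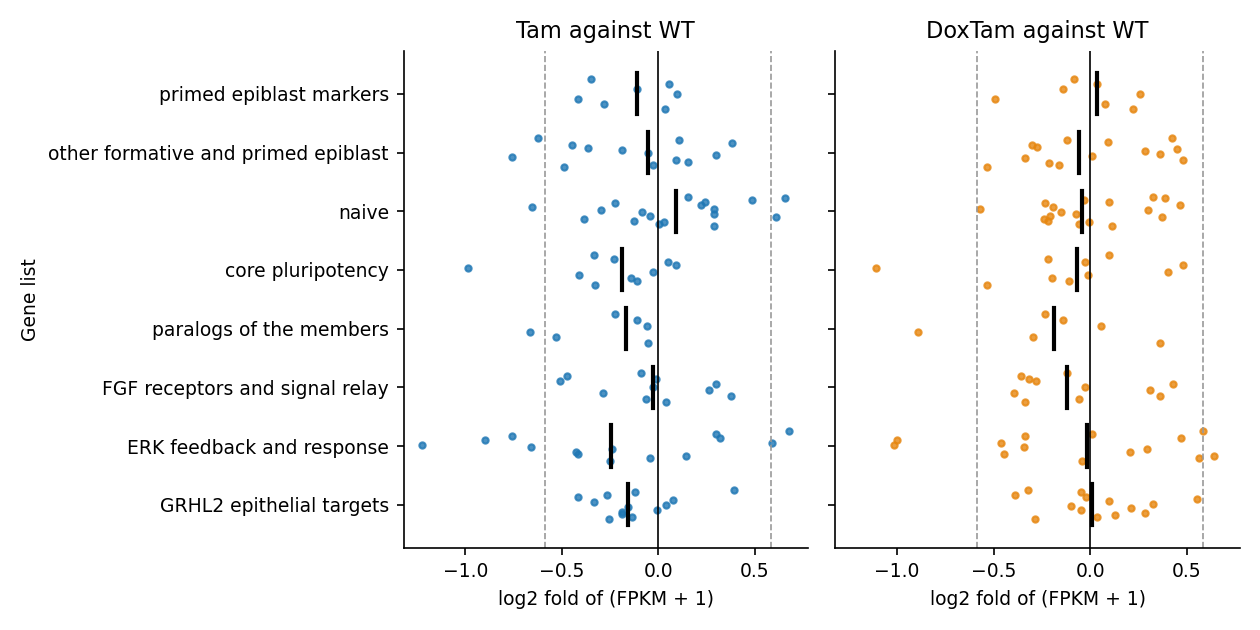
Log2 fold of (FPKM + 1) against WT (x axis) of each measured gene of 8 lists (y axis) in Tam (left, blue) and DoxTam (right, orange), with 1 point per gene, a black bar at the list's median and dashed lines at 1.5-fold. All 7 measured primed epiblast markers lie inside the dashed lines, and the ERK feedback and response genes are the most widely spread in Tam, from -1.22 to 0.68.

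Several members also mark neural and neural crest cells, so markers of other cell types were read in the same libraries. In Tam, 1 of 4 measured neural genes was higher (*Nes*, 1.71 FPKM in WT and 3.62 FPKM in Tam, 0.77) and 1 lower (*Tubb3*, 24.8 FPKM and 15.3 FPKM, -0.67, or -0.54 with the GC trend removed), with a median of -0.14. In DoxTam, 0 of 4 were higher and 0 lower, with a median of -0.02. The neural list of 14 genes summed to 32.6 FPKM in WT, 25.1 FPKM in Tam and 29.6 FPKM in DoxTam, mostly from *Tubb3*, and *Dcx*, a marker of young neurons, was at 0 in WT and DoxTam and at 0.0460 FPKM in Tam. Of the neural crest list, which holds *Foxd3* itself, 2 of 3 measured genes were higher and 0 lower in Tam (median 0.60). They were *Tfap2a*, at 0.577 FPKM in WT and 3.66 FPKM in Tam (1.56), and *Msx2*, at 1.03 FPKM and 2.07 FPKM (0.60, or 0.53 with the GC trend removed), while *Sox10*, a defining factor of neural crest, stayed between 0.415 and 0.597 FPKM. *Tfap2a* had no GC value. It was below 1 FPKM in WT and measured only through Tam, and a gene that enters this way can be called higher but not lower. In DoxTam, 0 of 2 were higher and 0 lower (median -0.36). *Msx2*, below 1 FPKM in DoxTam, was measured there only through WT, so its fold could only be below 0, which lowers this median.

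Of the mesoderm and primitive streak list, 1 of 3 measured genes was higher in Tam and 0 lower (median 0.37), namely *T*, the gene of brachyury, at 0.309 FPKM in WT and 1.92 FPKM in Tam (1.16). In DoxTam 1 of 2 was higher and 0 lower (median 0.33), namely *Eomes*, at 2.91 FPKM in WT and 5.43 FPKM in DoxTam (0.72). The trophectoderm list had 2 of 7 measured genes higher and 0 lower in Tam (median 0.25), *Gata3* at 0.0980 FPKM in WT and 1.77 FPKM in Tam (1.34) and *Cdx2* at 0.639 FPKM and 2.82 FPKM (1.22). *T*, *Gata3* and *Cdx2* were below 1 FPKM in WT and were measured only through Tam, where low values above 0 were more widespread. Genes that enter this way can be called higher but not lower, which also raises the medians of these lists in Tam. In DoxTam, 0 of 5 were higher and 1 lower (median 0.06), *Tfap2c* at 6.55 FPKM in WT and 3.70 FPKM in DoxTam (-0.68), which had no GC value. Of the primitive endoderm list, 0 of 2 genes in Tam and 0 of 1 in DoxTam were higher or lower, with medians of 0.04 and -0.35. The gene measured in DoxTam, *Gata4*, entered only through WT (1.31 FPKM, and 0.818 FPKM in DoxTam), so its fold could only be below 0. In the fibroblast list 1 of 4 measured genes, *Thy1*, was lower in Tam and in DoxTam (-0.75 and -0.60, or -0.66 and -0.40 with the GC trend removed), with 0 higher and medians of -0.10 and -0.03. The 11 genes of this list ran from 0 to 293 FPKM over the libraries, with *Fn1* the highest, and 3 of them were at 0 in WT, 1 in Tam and 4 in DoxTam. Removal of the GC trend also made calls against WT, all in DoxTam, and these genes are named after their values were seen. *Dppa3* of the naive list (-0.76) and *Msx2* of the neural crest list (-0.66) were then lower, and *Ier3* of the ERK list (0.63), *Krt8* of the trophectoderm list (0.68) and *Twist1* of the fibroblast list (0.86) were higher. *Dppa3* and *Msx2*, below 1 FPKM in DoxTam, were measured only through WT, so before removal of the trend their folds could only be below 0. The part of other cell types in the levels of the primed epiblast markers was not tested.

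Between DoxTam and Tam, the genes of these lists that passed 1.5-fold were named after their values were seen. *Lin28b* was the only gene of the other formative and primed list to pass, with a fold of 1.05. Among naive genes *Nr0b1* was higher (0.60) and *Dppa3* lower (-0.86), and among ERK genes *Spry4* (0.63) and *Dusp6* (0.61) were higher and *Fos* (-1.05) lower. *Elf3* (-0.72) of the GRHL2 targets, *Nes* (-0.97) of the neural list and *T* (-0.95) of the mesoderm list were lower, as were *Tfap2a* (-1.75) and *Msx2* (-1.17) of the neural crest list and *Cdx2* (-1.76) and *Gata3* (-1.19) of the trophectoderm list. *Twist1* of the fibroblast list was higher (0.66). None of the core pluripotency genes, paralogs, FGF receptor and relay genes or primitive endoderm genes passed. *Dppa3*, *T*, *Tfap2a*, *Msx2*, *Cdx2* and *Gata3* were below 1 FPKM in DoxTam and were measured only through Tam, so they could be called lower but not higher. This comparison shares the Tam library with that of Tam against WT.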

How the data were processed

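RNA-seq levels of 3 libraries were taken from 2 deposited tables, which each set a treated library (Tam or DoxTam) against WT. The authors deposited FPKM values. The submitters' processing notes name TopHat, Bowtie, Cufflinks 2.0.0 and the build mm9. The tables also hold the authors' own comparisons (log2 folds, test statistics, p-values, q-values, status), which were not used. WT levels differed by over 1% between the tables for 2 genes, and 27 gene names did not match.

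Conditions came from GEO's labels. FPKM was compared as deposited, with a pseudocount of 1 FPKM, a minimum of 1 FPKM in at least 1 of the 2 libraries and a limit of 1.5-fold. No test was possible with 1 library per condition. Fragments were estimated from the steps between low FPKM values, of which 70.7% in WT, 87.7% in Tam and 86.3% in DoxTam lay within 0.2 of a whole fragment, so fragment numbers and counting SE are approximate, most of all in WT. GC content was taken over exons of the mm9 genome and the trend removed with lowess (span 0.2), for the 91.9% to 92.0% of measured genes with a GC value. Promoter sequences came from RefSeq (GRCm38.p6). *Fgf15*, *Pou3f1*, *Zic2* and *Grhl2* were not in the promoter table. Steps were tested on simulated data, with calls simulated only for 2-fold changes of genes at 5 FPKM or more. Of the members only *Foxd3* and *Otx2* reach that level, so the simulation does not show whether changes of the others would be called. Python 3.11.15, numpy 2.4.6, pandas 2.3.3 and statsmodels 0.14.6 were used.

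Named genes are the 9 members, *Pou5f1*, from each list up to the 2 highest and 2 lowest of the genes that passed 1.5-fold against WT, and the 5 genes nearest to the widest ranging member; other genes named were chosen after their values were seen. Lists were other formative and primed epiblast, naive, core pluripotency, paralogs, FGF receptors and relay, ERK feedback and response, GRHL2 targets, neural, neural crest, mesoderm and primitive streak, primitive endoderm, trophectoderm and fibroblast. The members and lists were chosen with earlier results of these data known. Alternatives were pseudocounts of 0.1 and 5 FPKM, no filter and a filter at 5 FPKM, rescaling to the same total with and without small RNA genes, centring on the median fold, removal of the GC trend and a limit of 2-fold. Some values of the lists are not reported here.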

Additional observations from a re-analysis of the deposited data

How the results depend on the processing

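No paired analysis was possible because each condition has 1 library, and for the same reason no library could be left out. The count of members higher or lower stayed at 0 in all comparisons under the alternatives, except that with a pseudocount of 0.1 FPKM 1 member, *Pou3f1*, was lower in Tam (-0.79) and in DoxTam (-0.98) against WT. *Pou3f1* was measured only through WT, so this setting could call it lower but not higher. The limit of 2-fold, the filter at 5 FPKM, which left 2 members, and the pseudocount of 5 FPKM could not add calls. The count of 0 under these settings was therefore fixed in advance and shows nothing about stability. The pseudocount of 0.1 FPKM and removal of the GC trend were also combined, a combination chosen after seeing the data. There 1 member, *Zic2*, was higher in DoxTam against WT (0.61), while *Pou3f1* stood at -0.52 in Tam and -0.53 in DoxTam. Rescaling to the same total moved the median fold of all measured genes by 0.127 in Tam, 0.320 in DoxTam and 0.194 for DoxTam against Tam. The median of the members then became 0.032, 0.31 and 0.36. Rescaling also moved the share of calls over all genes that were higher from 66.0% to 83.8% in Tam, from 41.6% to 92.6% in DoxTam and from 26.7% to 58.3% for DoxTam against Tam, and without small RNA genes in the total it was 56.0% in Tam. With no filter the median of the members was -0.083 for DoxTam against WT and -0.020 for DoxTam against Tam. Of 186 folds of single members under alternatives, 156 stayed within their counting SE, 30 moved further and 20 changed sign. The 186 folds include those of the combination chosen after seeing the data. The limit of 2-fold, no filter and the filter at 5 FPKM leave each fold unchanged. Their folds among the 156 were therefore fixed in advance and show nothing about stability. Depth limits *Fgf5*, *Zic5*, *Pou3f1* and *Fgf15* most, since each rests on fewer than 50 fragments in every library.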
